A study of Mus musculus with 16 samples.

Results

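Collagen genes were taken here as all genes of the count table whose mouse symbol reads Col, a number, the letter a and a further number. This rule found 44 genes among the 54347 listed. The 44 genes were placed in classes by the structure their protein chains form, namely fibril-forming (11 genes), basement membrane network (6), beaded filament (6), fibril-associated or FACIT (9), short-chain network (3), transmembrane (4), multiplexin (2), anchoring fibril (1) and other (2). Of these genes, 21 had enough counts for a test and 23 did not.

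The libraries come from wt1-SAM cells, immortalised brown preadipocytes of the mouse with a stable CRISPRa SAM system, whose guide RNAs direct transcriptional activators to a chosen gene. The cells had been differentiated into brown adipocytes in culture, reverse transfected on day 4 with 250 ng plasmid and harvested on day 7. The plasmid was the empty vector or, in what are called sgRNA cells, 2 sgRNA vectors directed at the long noncoding RNA *Gm15551*, and cells were left as control or stimulated for 24 h with 1 µM isoproterenol, a β-adrenergic agonist. Every group holds 1 library each of replicates 3, 4, 5 and 6. The 4 groups are empty vector control, empty vector with isoproterenol, sgRNA control and sgRNA with isoproterenol, with 16 libraries of polyadenylated RNA in all. All 4 groups share the line, the activator system, the differentiation mixture and the transfection, and the comparison describes this 1 line only. The labels do not say what a replicate number stands for, nor that replicates were separate cultures, so p-values measure the spread between these libraries, which may be technical in part.

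Collagens are the main structural proteins of the extracellular matrix, and their chains wind around each other into rope-like helices before export from the cell. Fibril-forming collagens such as types I, III and V give connective tissue its tensile strength, FACIT collagens attach to the surface of such fibrils, type IV collagen forms the sheet of the basement membrane that wraps each adipocyte, and type VI collagen forms beaded filaments that link the basement membrane to the matrix around it. In adipose tissue, preadipocytes and fibroblasts make most fibrillar collagen, whereas mature adipocytes are known for basement membrane and type VI collagen.

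The start-site regions of 4 members on which the results turn are shown first, because *Col27a1* and *Col6a2* were the members called for isoproterenol and *Col4a1* and *Col4a2* face away from each other across 1 shared region. Each sequence is from RefSeq on GRCm38.p6, runs 5′ to 3′ in the direction of the gene, and holds 250 bases before and 50 after a RefSeq start site. Capitals mark GC boxes (GGGCGG or CCGCCC) and CCAAT boxes (CCAAT or ATTGG) on either strand. The *Col4a1* window lies at chr8:11312777-11313076 on the minus strand and the *Col4a2* window at chr8:11312555-11312854 on the plus strand. The windows share 78 bp, and the start sites are 21 bp apart. The *Col27a1* window lies at chr4:63215162-63215461 on the plus strand, 1408 bp from the gene's first annotated base in GENCODE M21, and the *Col6a2* window at chr10:76623581-76623880 on the minus strand. *Col6a2* has another RefSeq start site 226 bp downstream, whose window at chr10:76623355-76623654 is not printed and holds 3 GC boxes, overlaps counted, at a GC content of 64.3%, against 1 and 56.7% in the printed window. 
Col4a1: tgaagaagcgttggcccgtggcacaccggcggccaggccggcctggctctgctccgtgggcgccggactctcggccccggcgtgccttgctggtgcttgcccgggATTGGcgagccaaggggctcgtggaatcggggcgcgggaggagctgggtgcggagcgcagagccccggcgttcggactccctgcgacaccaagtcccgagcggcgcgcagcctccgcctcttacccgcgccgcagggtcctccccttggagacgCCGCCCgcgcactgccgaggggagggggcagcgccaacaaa
Col4a2: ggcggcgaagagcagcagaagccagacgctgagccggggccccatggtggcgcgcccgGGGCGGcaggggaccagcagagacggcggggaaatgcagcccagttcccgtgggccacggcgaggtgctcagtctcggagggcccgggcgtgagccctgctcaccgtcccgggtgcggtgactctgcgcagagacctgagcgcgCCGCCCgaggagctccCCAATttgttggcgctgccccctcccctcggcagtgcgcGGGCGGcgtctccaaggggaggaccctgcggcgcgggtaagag
Col27a1: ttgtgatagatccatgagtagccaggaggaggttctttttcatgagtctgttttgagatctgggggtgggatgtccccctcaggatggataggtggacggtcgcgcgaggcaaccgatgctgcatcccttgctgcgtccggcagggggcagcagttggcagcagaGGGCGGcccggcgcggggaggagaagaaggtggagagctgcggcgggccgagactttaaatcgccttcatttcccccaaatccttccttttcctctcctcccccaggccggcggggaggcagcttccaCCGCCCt
Col6a2: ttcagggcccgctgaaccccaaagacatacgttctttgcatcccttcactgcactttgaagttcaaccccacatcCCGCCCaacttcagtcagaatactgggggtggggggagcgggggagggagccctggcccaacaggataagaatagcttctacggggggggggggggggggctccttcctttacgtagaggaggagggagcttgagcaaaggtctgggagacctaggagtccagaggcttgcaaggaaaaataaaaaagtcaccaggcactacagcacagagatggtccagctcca

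Among 38 such windows of 35 members with an entry, 60.5% held a GC box, against 35.7% of all 32851 windows of this length. A CCAAT box stood in 34.2% of the members' windows and 37.4% of all, and their median GC content was 59.8% against 52.7%. The cAMP response element (TGACGTCA on either strand), the site known for transcription factors that act downstream of β-adrenergic signalling, was found in 1 member window (2.63%), that of *Col24a1*, which had too few counts for a test, and in 1.79% of all windows. These matches describe letters in a window and are not evidence of binding.

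Total counts per library ranged from 9053521 to 16546187, of which 11.7% to 51.8% fell on 1 ribosomal RNA gene, so that 5900607 to 12959314 counts remained for all other genes. A count of 0 allowed up to 0.166 to 0.389 CPM (counts scaled to the same TMM-adjusted library size) depending on the library, a limit of 3 counts that covers counting error only. *Gm15551*, the targeted gene, had means of 0.9502 ± 0.405 CPM in control cells with the empty vector and of 2.96 ± 1.08 CPM in those with the sgRNA (SD, n = 4), and with isoproterenol at 0.146 ± 0.198 and 1.56 ± 0.419 CPM. All 10 adipocyte markers examined had enough counts for a test and summed to between 12480 and 27150 CPM per library. Most of that sum was *Fabp4*, with means of 16100 CPM in both control groups. With isoproterenol its means were 12110 CPM in empty vector and 13430 CPM in sgRNA cells. *Ucp1* was low without isoproterenol, at 0.349 ± 0.301 CPM in empty vector and 0.547 ± 0.315 CPM in sgRNA cells (SD, n = 4), and at 6.41 and 9.33 CPM with it. The 8 preadipocyte and fibroblast markers summed to 8.52 to 94.6 CPM and the 4 endothelial markers to 1.42 to 3.14 CPM.

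The collagens of these cells were mainly types IV and VI. Collagen genes held between 0.121% and 0.353% of the counts left without the ribosomal RNA gene. The lowest share was in the stimulated empty vector library of replicate 3, in which many members were low and the ribosomal RNA gene took 41.6% of all counts, against 20.9% in the control of the same number. *Col4a1*, *Col4a2*, *Col6a1*, *Col6a2* and *Col6a3* together took 87.7% of all collagen counts. Of the summed CPM per kb of annotated exon length, the scale on which genes are compared here, beaded filament collagens held 47.1% ± 3.497 (SD, n = 16), basement membrane collagens 43.1% ± 4.87, fibril-forming collagens 6.48% ± 2.37, multiplexins 2.00% ± 0.232 and FACIT collagens 1.16% ± 0.439. That length joins the exons of all annotated transcripts of a gene. It was 8.326 kb for *Col6a2* and 4.38 kb for *Col6a1*, and 12.426 kb for *Col1a2* and 6.563 kb for *Col1a1*. A longer annotation lowers the value per kb, so ranks and ratios between genes depend on it.

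On that scale *Col4a1*, which encodes the main chain of basement membrane collagen, had the highest mean level over the 16 libraries, 71.2 CPM per kb ± 21.3 (SD, n = 16). It was followed by *Col6a1* at 57.9 ± 13.1, *Col6a3* at 37.5 ± 7.15, *Col4a2* at 32.7 ± 11.4 and *Col6a2* at 18.1 ± 4.75 CPM per kb. *Col5a2*, a chain of the type V collagen that sits inside type I fibrils, came next at 5.19 ± 2.21 CPM per kb. The order depended on the replicate number, since in replicate 6 *Col6a1* stood at 60.4 ± 5.50 and *Col4a1* at 60.1 ± 9.25 CPM per kb, and in replicate 5 *Col4a2* stood at 47.98 ± 8.29 and *Col6a3* at 44.96 ± 6.89 (SD, n = 4), both differences within the SD. Over all libraries the SDs of *Col6a3* and *Col4a2* reached over each other's means, and the remaining 15 members tested had means from 0.133 (*Col5a3*) to 3.58 CPM per kb (*Col15a1*). *Col1a1*, *Col1a2* and *Col3a1*, the chains of the main fibrils of skin, bone and fascia, had means of only 1.92, 1.15 and 1.55 CPM per kb.

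By class, 8 of 11 fibril-forming, 4 of 6 basement membrane, 3 of 6 beaded filament, 3 of 9 FACIT, 2 of 2 multiplexin and 1 of 1 anchoring fibril genes were tested, and 0 of 3 short-chain, 0 of 4 transmembrane and 0 of 2 other genes. Among the 23 not tested, the highest mean was 0.544 CPM (*Col9a3*), the highest count in any library was 18, and *Col9a2* had 0 counts in all 16. *Col2a1*, the fibril collagen of cartilage, had 25 counts in all libraries together, and *Col4a3* and *Col4a4*, the type IV chains of the kidney filter, had 61 and 77. Whether these genes differed between groups was not detectable at this depth.

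**Figure D1:**
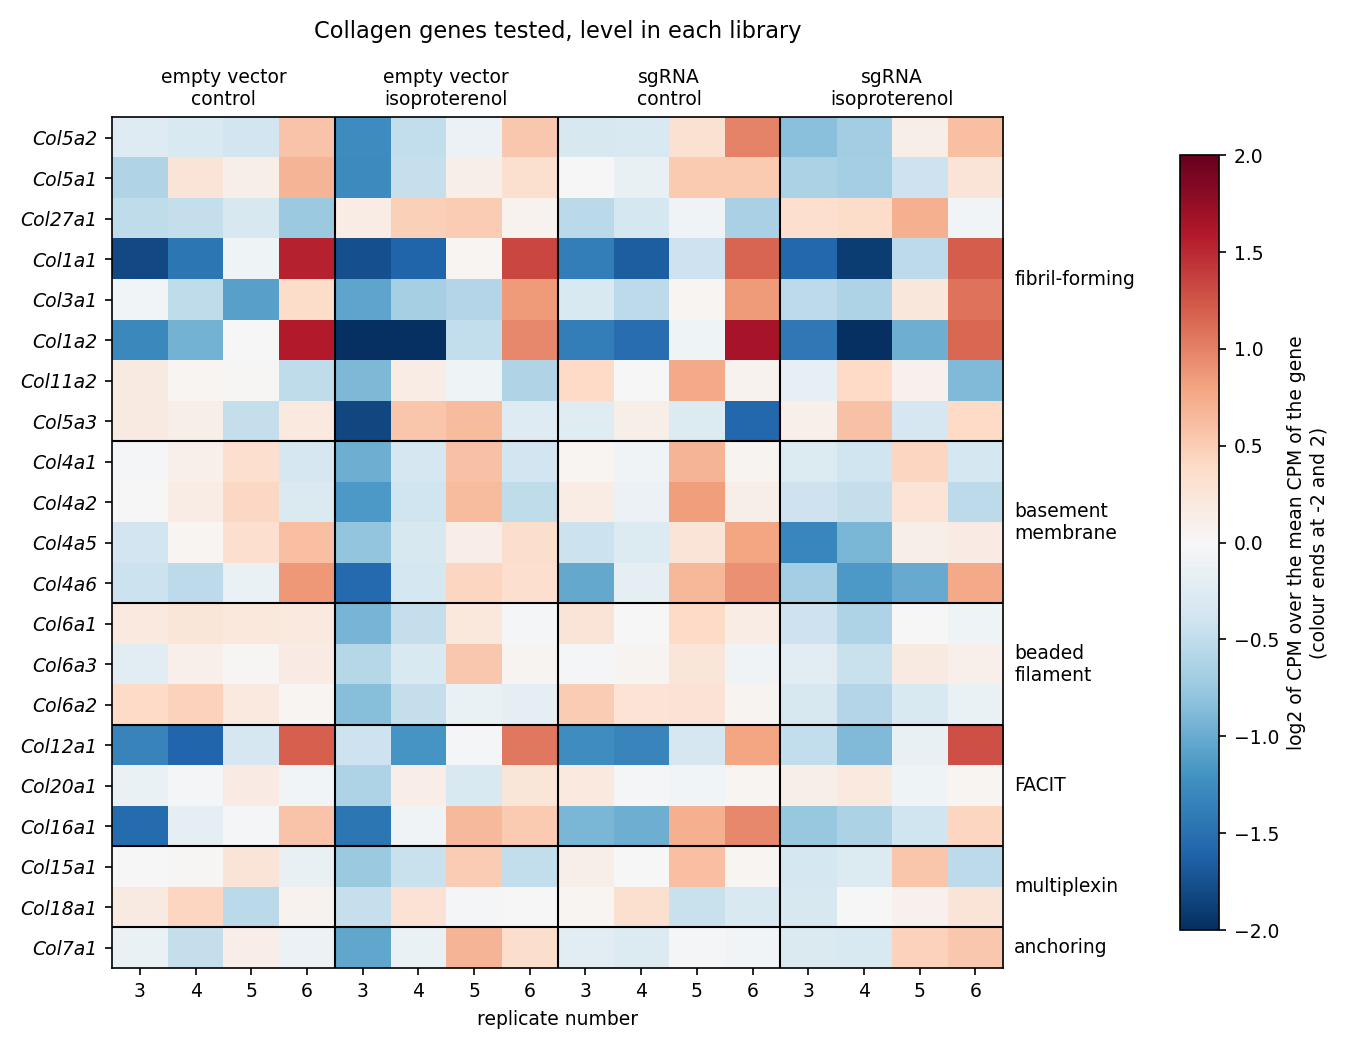
Level of the 21 collagen genes tested in each of the 16 libraries, as log2 of the CPM over the mean CPM of the gene (colour), with genes in rows by class and libraries in columns by group and replicate number. *Col1a1*, *Col1a2* and *Col12a1* are highest in replicate 6 of every group, and *Col4a1*, *Col4a2* and *Col15a1* in replicate 5.

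The first question was which collagens changed with β-adrenergic stimulation. Averaged over plasmids, *Col27a1* rose and *Col6a2* fell, and the other 19 members tested did not pass the test. A gene was called where edgeR's quasi-likelihood test gave a Benjamini-Hochberg adjusted p under 0.05 over all 13150 genes tested and an absolute log2 fold change over 0.5. Averaged over plasmids, 2 of 21 members (9.52%) were called, against 2.65% of all genes tested. Of the members 1 was called higher and 1 lower, against 1.33% and 1.32% of all genes. With the replicate number as a block, so that libraries of the same number were compared with each other, 4 of 21 (19.0%) were called, against 5.7% of all genes, and these were 1 higher and 3 lower, against 3.09% and 2.61%, the additional members being *Col1a2* and *Col5a1*.

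*Col27a1* encodes a fibril-forming collagen known from cartilage and growth plate. The gene (ENSMUSG00000045672) spans chr4:63214004-63334991 on the plus strand of GRCm38. In empty vector cells it stood at 22.04, 22.6, 25.3 and 18.8 CPM in the control libraries of replicates 3, 4, 5 and 6, and at 34.7, 43.8, 44.8 and 33.0 CPM in the stimulated ones. Values in sgRNA cells were 21.6, 24.7, 30.0 and 20.02 CPM without and 39.9, 40.4, 51.3 and 30.4 CPM with isoproterenol, in the same order. Each stimulated library lay above every control library of the same plasmid, with no overlap. The log2 fold change was 0.78 (adjusted p = 0.000934, SE 0.12) averaged over plasmids, higher in 8 of 8 pairs of the same plasmid and replicate number, 0.82 (adjusted p = 0.0258, SE 0.17) in empty vector cells and 0.75 (adjusted p = 0.0493, SE 0.16) in sgRNA cells. The calls within 1 plasmid were lost in 6 of 16 fits without 1 library and 2 of 4 without 1 replicate number in empty vector cells (adjusted p up to 0.346), and in 13 of 16 and 3 of 4 in sgRNA cells (up to 0.521), but in none of the 5 such fits with the block. The difference between these effects was −0.07 (95% confidence interval −0.57 to 0.42) and did not pass the test. A microRNA gene, *Mir455*, lies inside *Col27a1* on the same strand, and reads of the host transcript and of its precursor cannot be told apart here.

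Type VI collagen is assembled from the products of *Col6a1*, *Col6a2* and *Col6a3*. *Col6a1* (ENSMUSG00000001119, chr10:76708792-76726168) and *Col6a2* (ENSMUSG00000020241, chr10:76595762-76623630) lie on the same minus strand 85161 bp apart, and *Col6a3* (ENSMUSG00000048126) lies at chr1:90765923-90843971. *Col6a2* was at 199, 208, 173 and 156 CPM in the empty vector controls (replicates 3, 4, 5 and 6) and at 83.7, 109, 137 and 131 CPM after stimulation. In sgRNA cells the values were 214, 182, 184 and 157 CPM and 121, 100.5, 122 and 138 CPM, respectively. All stimulated libraries were below all control libraries of their plasmid. The averaged log2 fold change of *Col6a2* was −0.65 (adjusted p = 0.00229, SE 0.11), lower in 8 of 8 pairs. It was −0.67 (adjusted p = 0.0498, SE 0.15) in empty vector cells and −0.62 (adjusted p = 0.0909, SE 0.15) in sgRNA cells, where the call needed the replicate block (−0.62 (adjusted p = 0.0151, SE 0.15)) and was lost from that fit without replicate 4 or 5 (adjusted p up to 0.107). In empty vector cells the call without the block was lost in 14 of 16 fits without 1 library and 4 of 4 without 1 replicate number (adjusted p up to 0.476), and the blocked call was lost without replicate 4 (adjusted p = 0.0897). Leaving out both plasmids' libraries of replicate 4 ended the averaged call, with a log2 fold change of −0.56 and an adjusted p of 0.0661.

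*Col6a1* stood at 291, 301, 293 and 289 CPM in empty vector control libraries of replicates 3 to 6 and at 133, 183, 294 and 248 CPM in stimulated ones, which overlapped at replicate 5. In sgRNA cells it was at 302, 256, 336 and 281 CPM without and 190.3, 165, 253 and 240.1 CPM with isoproterenol, and these groups did not overlap. Its averaged log2 fold change was −0.46 (adjusted p = 0.0727, SE 0.14), lower in 7 of 8 pairs. With the block it was −0.49 (adjusted p = 0.00266, SE 0.10), which passed on p and fell just short of the bound on fold change.

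*Col6a3*, the longest chain of type VI collagen, was at 384, 483, 456 and 502 CPM and with isoproterenol at 302, 362, 652 and 468 CPM in empty vector cells. The sgRNA cells had 437, 467, 534 and 426 CPM and 389.6, 329, 509.7 and 484 CPM. The groups overlapped in both plasmids, and the stimulated empty vector libraries held both the lowest and the highest value of all 16. Its log2 fold change was −0.08 (95% confidence interval −0.38 to 0.22), lower in 6 of 8 pairs. It was −0.004 without the stimulated empty vector library of replicate 3.

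**Figure D2:**
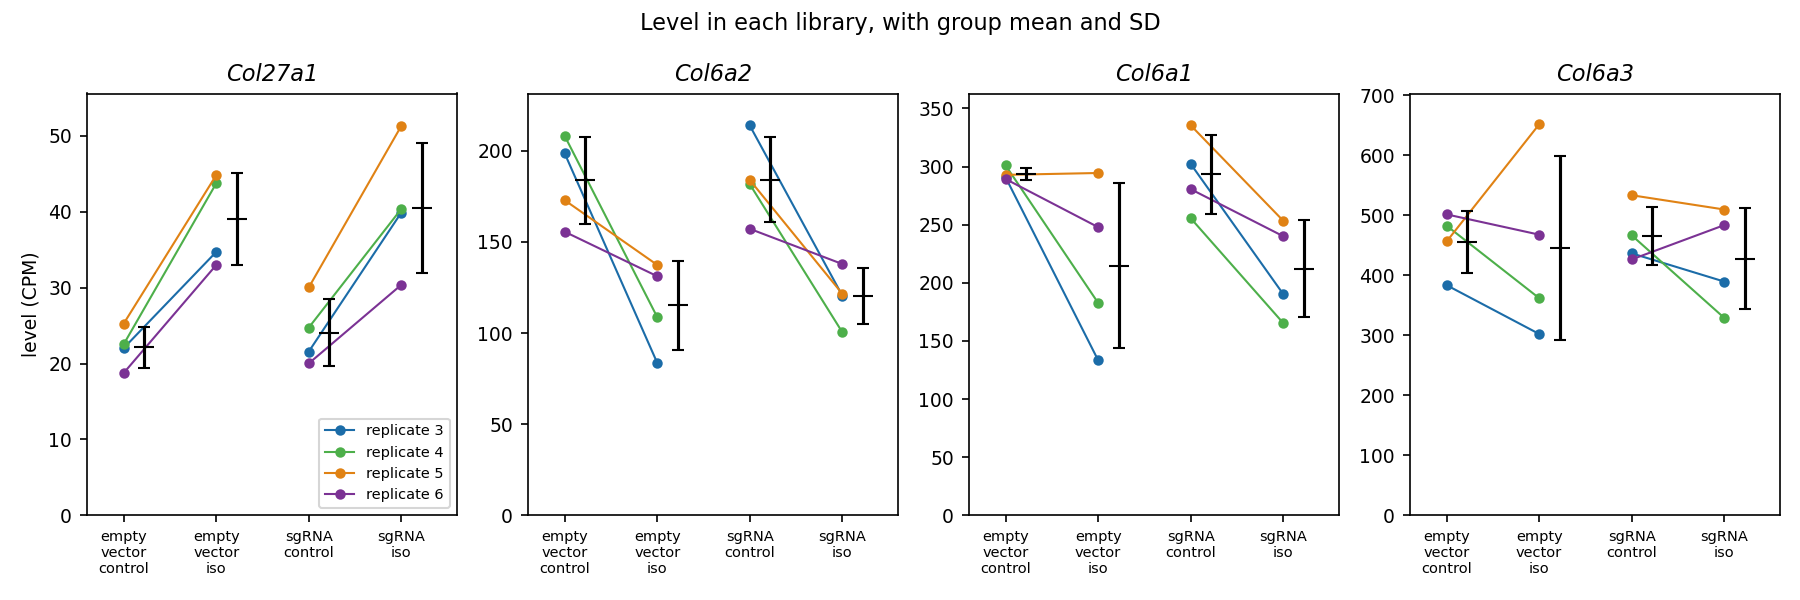
Level in CPM of *Col27a1*, *Col6a2*, *Col6a1* and *Col6a3* in each library (points), with lines joining control and isoproterenol libraries of the same plasmid and replicate number and black bars for the group mean ± SD (n = 4). *Col27a1* rises and *Col6a2* falls along all 8 lines, while the lines of *Col6a3* go both ways.

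Transcripts of *Col6a2* and *Col6a1* were lower relative to those of *Col6a3* in the stimulated libraries. Per kb, *Col6a2* was at 0.744, 0.620, 0.544 and 0.446 times *Col6a3* in empty vector control libraries of replicates 3 to 6 and at 0.398, 0.432, 0.303 and 0.403 times in the stimulated ones. The corresponding ratios in sgRNA cells were 0.704, 0.559, 0.495 and 0.529 and 0.445, 0.439, 0.343 and 0.410. The ratio was lower with isoproterenol in 8 of 8 pairs with a median fold of 0.694 (range 0.535 to 0.904), and in each plasmid the stimulated libraries lay below all control libraries. The ratio of *Col6a1* to *Col6a3* was also lower in 8 of 8 pairs, with a median fold of 0.773, whereas that of *Col6a1* to *Col6a2* was higher in 7 of 8, with a median fold of 1.13. These ratios were examined as a description and were not tested.

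**Figure D3:**
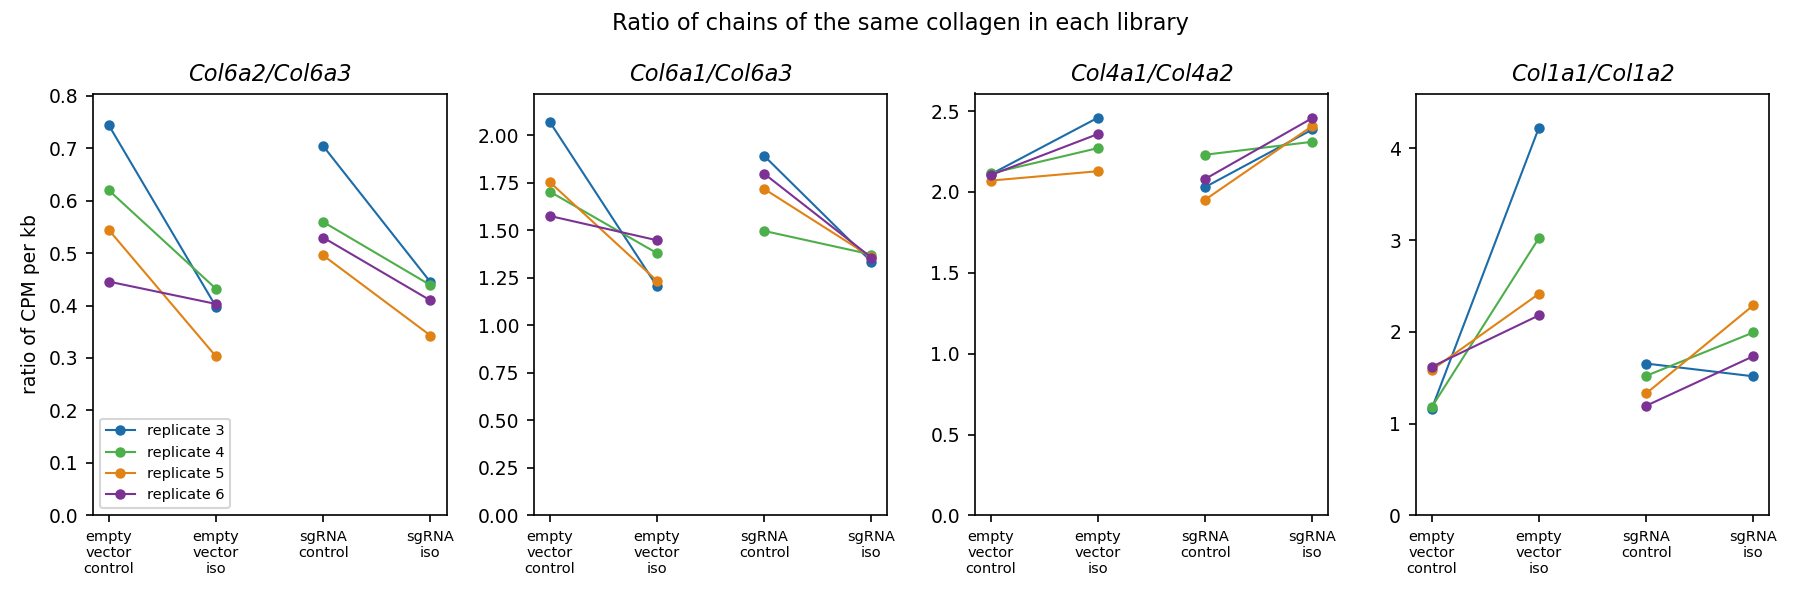
Ratio of CPM per kb between chains of the same collagen in each library (points), with lines joining control and isoproterenol libraries of the same plasmid and replicate number. *Col6a2* and *Col6a1* over *Col6a3* are lower with isoproterenol in 8 of 8 pairs, *Col4a1* over *Col4a2* is higher in 8 of 8 and *Col1a1* over *Col1a2* in 7 of 8.

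Among basement membrane collagens, 0 of 4 members tested were called without the block in any isoproterenol contrast by edgeR, and 0 by DESeq2. At an unadjusted p under 0.05 there were 0 averaged over plasmids, in empty vector and in sgRNA cells, against 17.7%, 10.1% and 8.46% of all genes. With the block there were 3, 2 and 3 of 4, against 33.5%, 23.7% and 21.7%. *Col4a1* (ENSMUSG00000031502, chr8:11198423-11312826) and *Col4a2* (ENSMUSG00000031503, chr8:11312805-11449287) are the abundant type IV chains. *Col4a1* stood at 515, 572, 669.5 and 421 CPM in empty vector control libraries and at 271, 421, 802 and 406 CPM after stimulation, for replicates 3, 4, 5 and 6. The sgRNA cells had 548, 504, 851 and 552 CPM and, with isoproterenol, 438, 404, 713 and 417 CPM. Control and stimulated libraries overlapped, and replicate 5 held the highest value in every group. The averaged log2 fold change of *Col4a1* was −0.26 (adjusted p = 0.57, SE 0.20), and −0.30 (adjusted p = 0.042, SE 0.10) with the block. Without the stimulated empty vector library of replicate 3 these values of *Col4a1* were −0.16 and −0.21 (adjusted p = 0.769 and 0.0526).

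*Col4a2*, whose product joins that of *Col4a1* in the same helix, had 216, 240.0, 287 and 177 CPM in empty vector control libraries and 97.6, 164, 334 and 152 CPM in stimulated ones. Its sgRNA values were 239, 200.3, 387 and 235 CPM and 163, 155, 262 and 150.4 CPM. These groups overlapped too. The log2 fold change was −0.42 (adjusted p = 0.346, SE 0.22), and −0.47 (adjusted p = 0.00719, SE 0.11) with the block, and in sgRNA cells alone the blocked fit called it (−0.54 (adjusted p = 0.0451, SE 0.16), lower in 4 of 4 pairs), a call lost without replicate 4, 5 or 6 (adjusted p up to 0.210). The ratio of *Col4a1* to *Col4a2* per kb was between 1.95 and 2.23 in control libraries and between 2.13 and 2.46 in stimulated ones, and was higher with isoproterenol in 8 of 8 pairs with a median fold of 1.14.

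*Col4a5*, a minor type IV chain encoded on the X chromosome, was at 9.73, 13.1, 16.1 and 19.4 CPM in empty vector control and 7.33, 10.2, 14.0 and 16.3 CPM in stimulated libraries. In sgRNA cells it was at 9.43, 10.6, 15.2 and 22.1 CPM and 5.14, 6.78, 13.8 and 14.2 CPM. Although the groups overlapped, the stimulated library was lower in 8 of 8 pairs. The log2 fold change was −0.40 (adjusted p = 0.451, SE 0.25), with the block −0.43 (adjusted p = 0.00214, SE 0.09), and in sgRNA cells alone the blocked fit called it (−0.55 (adjusted p = 0.0093, SE 0.12)), which was lost without replicate 3, 4 or 6 (adjusted p up to 0.0911). Its neighbour *Col4a6*, which starts 1343 bp away in the other direction, was at a mean of 1.13 CPM, with an averaged estimate of −0.35 (adjusted p = 0.71, SE 0.38).

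Of the fibril-forming collagens other than *Col27a1*, *Col1a2* and *Col5a1* were called with the block only. *Col1a2* (ENSMUSG00000029661, chr6:4504814-4541544) encodes a chain of type I collagen. It had 5.89, 7.47, 14.3 and 42.8 CPM in the empty vector controls (replicates 3, 4, 5 and 6) and 1.67, 2.60, 10.2 and 27.8 CPM in stimulated ones. In sgRNA cells it had 5.52, 5.01, 13.5 and 44.8 CPM and 5.32, 3.22, 7.28 and 31.9 CPM. The spread between replicate numbers was far wider than the difference within a number, but the stimulated library was lower in 8 of 8 pairs. The log2 fold change was −0.62 (adjusted p = 0.704, SE 0.66), and with the block −0.72 (adjusted p = 0.00126, SE 0.14). Without the block the value ran from −1.21 to −0.07 when 1 library was left out, and these extremes came from leaving out the stimulated empty vector and the sgRNA control library of replicate 6. In empty vector cells alone the blocked value was −0.91 (adjusted p = 0.00738, SE 0.20). It ran from −1.10 to −0.72 with libraries left out and was no longer called without replicate 4 (adjusted p = 0.079). The blocked difference between the effects in sgRNA and empty vector cells was 0.37 (95% confidence interval −0.20 to 0.94), which did not pass.

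The partner chain *Col1a1*, singled out after its values were seen, did not move with *Col1a2*. It stood at 3.604, 4.66, 11.9 and 36.6 CPM in empty vector control and 3.73, 4.14, 12.9 and 32.0 CPM in stimulated libraries. The sgRNA values were 4.82, 4.02, 9.49 and 28.2 CPM and 4.26, 3.39, 8.79 and 29.2 CPM. The blocked log2 fold change of *Col1a1* was −0.07 (95% confidence interval −0.27 to 0.12), and the ratio of *Col1a1* to *Col1a2* per kb was higher with isoproterenol in 7 of 8 pairs, with a median fold of 1.49. In empty vector cells the stimulated libraries lay above all control libraries, with mean ratios of 2.96 and 1.385. In sgRNA cells the ratios overlapped, with means of 1.883 with and 1.424 without isoproterenol. An annotated gene model lies within *Col1a2* on the same strand, so reads could be divided between them.

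*Col5a1*, which encodes the type V chain that starts fibril assembly, had 14.0, 25.3, 22.9 and 34.1 CPM in empty vector control and 8.74, 15.4, 23.1 and 26.4 CPM in stimulated libraries. In sgRNA cells it had 21.1, 19.1, 30.6 and 30.6 CPM and 13.7, 13.2, 15.99 and 25.4 CPM. The stimulated library was lower in 7 of 8 pairs, and the groups overlapped. Its log2 fold change was −0.47 (adjusted p = 0.291, SE 0.23), with the block −0.50 (adjusted p = 0.0055, SE 0.12). In sgRNA cells alone the blocked fit called it (−0.60 (adjusted p = 0.0309, SE 0.16), lower in 4 of 4 pairs), which was lost without replicate 4, 5 or 6 (adjusted p up to 0.179). Averaged over plasmids, without the stimulated empty vector library of replicate 3 the blocked value was −0.44, under the fold bound, as it was without replicate 3 (−0.48) or replicate 4 (−0.45).

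*Col5a2* was at 41.7, 40.3, 38.1 and 73.7 CPM in empty vector control and 20.8, 35.3, 45.7 and 72.1 CPM in stimulated libraries, and at 39.7, 40.1, 61.4 and 99.1 CPM and 27.8, 30.6, 53.9 and 75.6 CPM in sgRNA cells. Its groups overlapped, and its log2 fold change of −0.25 (adjusted p = 0.715, SE 0.28) did not pass in either fit and was −0.14 without the stimulated empty vector library of replicate 3. For *Col3a1*, *Col11a2* and *Col5a3* the estimates were 0.09, −0.32 and 0.32, and none of them passed.

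The product of the FACIT gene *Col12a1* attaches to type I fibrils. It stood at 7.21, 6.10, 14.5 and 41.6 CPM in empty vector control and 13.6, 8.06, 17.9 and 37.7 CPM in stimulated libraries, and at 7.68, 7.29, 14.5 and 31.6 CPM and 13.0, 9.88, 16.5 and 44.8 CPM in sgRNA cells. It was higher with isoproterenol in 7 of 8 pairs, with a blocked log2 fold change of 0.39 (adjusted p = 0.0102, SE 0.10), below the fold bound. The FACIT gene *Col20a1* had 5.59, 5.97, 6.87 and 5.91 CPM in empty vector control and 3.99, 6.68, 4.95 and 7.22 CPM in stimulated libraries, and 6.98, 6.00, 5.90 and 6.30 CPM and 6.65, 7.00, 5.76 and 6.27 CPM in sgRNA cells. *Col16a1* had 0.360, 0.918, 1.04 and 1.55 CPM in empty vector control and 0.386, 0.994, 1.65 and 1.51 CPM in stimulated libraries, and 0.559, 0.531, 1.72 and 2.05 CPM and 0.621, 0.678, 0.799 and 1.41 CPM in sgRNA cells. Groups overlapped for both genes, and their log2 fold changes of −0.02 and −0.09 did not pass.

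The multiplexin *Col15a1*, which anchors basement membranes to the matrix beneath, had 22.9, 23.1, 27.2 and 20.4 CPM in empty vector control and 13.6, 16.7, 32.3 and 16.2 CPM in stimulated libraries, and 24.8, 22.8, 34.4 and 23.4 CPM and 17.9, 18.8, 33.4 and 15.8 CPM in sgRNA cells. It was lower with isoproterenol in 7 of 8 pairs, with a blocked log2 fold change of −0.32 (adjusted p = 0.0139, SE 0.09). *Col18a1*, the source of the fragment endostatin, had 9.73, 11.6, 5.96 and 9.02 CPM in empty vector control and 6.30, 10.6, 8.38 and 8.56 CPM in stimulated libraries, and 8.87, 10.8, 6.35 and 6.98 CPM and 6.92, 8.64, 9.19 and 10.3 CPM in sgRNA cells. *Col7a1*, the anchoring fibril of skin, had 2.16, 1.71, 2.59 and 2.18 CPM in empty vector control and 1.16, 2.15, 3.81 and 3.02 CPM in stimulated libraries, and 2.02, 1.97, 2.32 and 2.27 CPM and 1.95, 1.92, 3.28 and 3.45 CPM in sgRNA cells. These groups overlapped. Their log2 fold changes were −0.01 and 0.27, and neither passed.

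**Figure D4:**
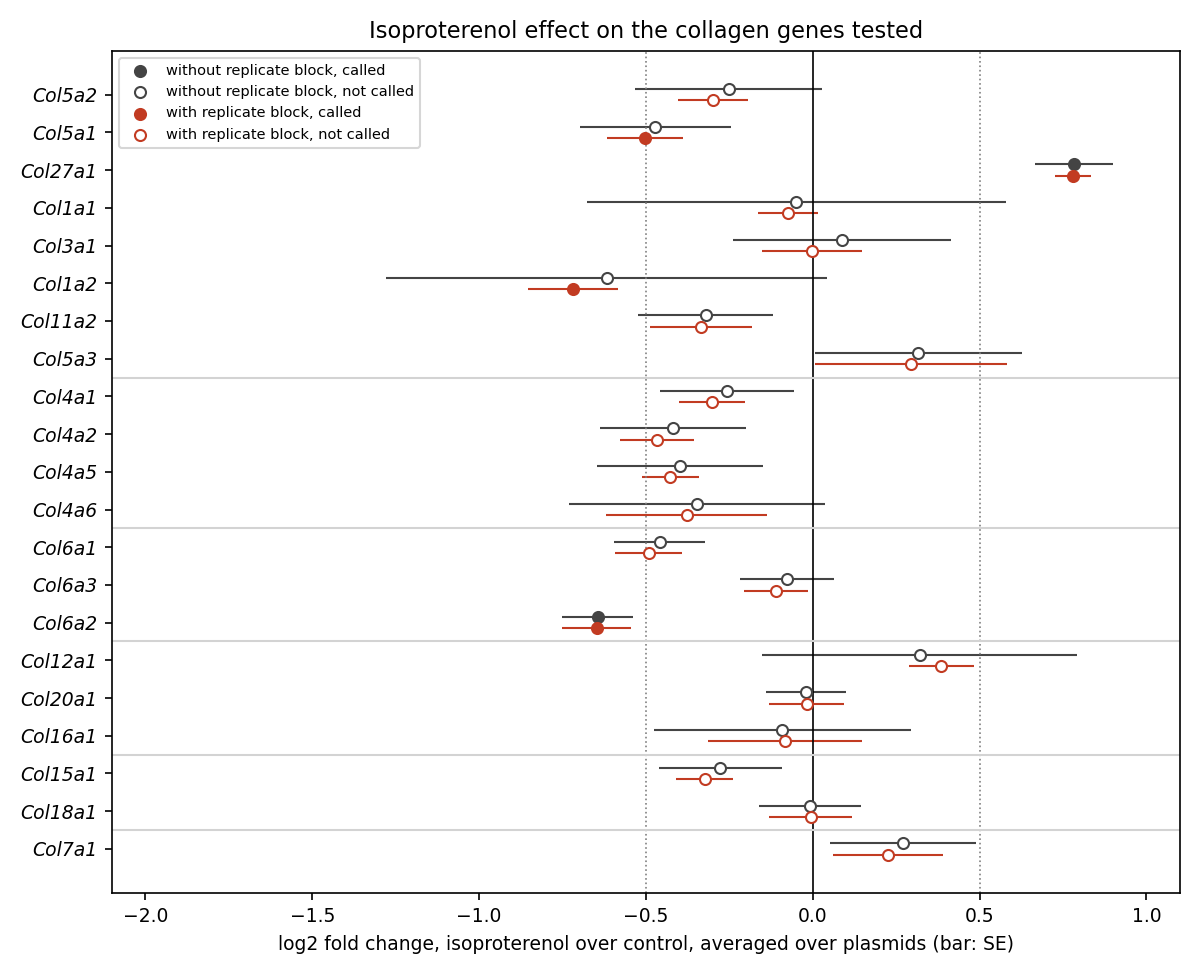
Log2 fold change of isoproterenol over control averaged over plasmids, ± SE, for the 21 collagen genes tested, without (grey) and with (red) the replicate block, with filled points for called genes and dotted lines at the fold bound of 0.5. *Col27a1* and *Col6a2* are called in both fits and *Col1a2* and *Col5a1* with the block only.

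Across the 21 members the median log2 fold change with isoproterenol was −0.25, against 0.01 for all genes tested, and 16 of 21 estimates were below 0, against 49.0% of all genes. With 1 library left out the median of the members ran from −0.30 to −0.08, the latter without the sgRNA control library of replicate 6, and it was −0.14 without the stimulated empty vector library of replicate 3. With the block, 10 of 21 members (47.6%) had an adjusted p under 0.05 whatever their fold change, against 21.3% of all genes. In empty vector cells alone 2 of 21 were called (0.829% of all genes), and 3 with the block (4.47%). In sgRNA cells alone 1 of 21 was called (0.7%), and 5 with the block (3.9%). Without the block the calls within 1 plasmid depended on which libraries entered the fit, and leaving out the empty vector control library of replicate 3, 4 or 5 or the stimulated empty vector library of replicate 4 left 0 members called in either plasmid. Without the stimulated empty vector library of replicate 3, *Col6a2* lost its call in empty vector cells (−0.55, adjusted p = 0.125) and *Col27a1* in sgRNA cells (0.75, adjusted p = 0.0625), *Col6a2* gained one there (−0.62, adjusted p = 0.0417), and the value of *Col1a2* in empty vector cells went from −0.71 to −0.37. The interaction called 0 of 21 members in either fit of edgeR and in DESeq2, with 0 members at an unadjusted p under 0.05 in either edgeR fit (0.395% and 1.51% of all genes without and with the block).

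The share of counts on the ribosomal RNA gene was higher with isoproterenol in 4 of 4 pairs of empty vector cells, at 19.65% to 47.3% in control and 22.1% to 51.8% in stimulated libraries, and in 2 of 4 pairs of sgRNA cells, at 17.8% to 20.2% and 11.7% to 28.7%. With the block and this share as a covariate, the averaged log2 fold changes were 0.82 for *Col27a1* (adjusted p = 6.97e-08), −0.65 for *Col6a2* (adjusted p = 0.00106), −0.77 for *Col1a2* (adjusted p = 0.00152) and −0.51 for *Col5a1* (adjusted p = 0.0107), which were the 4 members called.

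Of the cell type markers, 4 of 10 adipocyte markers and 1 leukocyte marker were called for isoproterenol without the block, against 2.65% of all genes. The summed adipocyte markers had a median of 25290 CPM in empty vector control and 18770 CPM in stimulated libraries, and of 24440 and 21220 CPM in sgRNA cells, and 1 of 10 was called higher and 3 lower. With the block 2 were higher and 5 lower, where 5.7% of all genes were called. Of the preadipocyte and fibroblast markers, 0 of 4 tested were called without the block and 1 higher with it. The whole list summed to a median of 24.7 and 57.9 CPM in empty vector and of 18.4 and 35.2 CPM in sgRNA cells. Most of that sum was *Ly6a*, with means of 25.9 ± 22.6 and 49.2 ± 29.4 CPM in empty vector and of 14.9 ± 12.03 and 30.7 ± 20.4 CPM in sgRNA cells (SD, n = 4), while *Pdgfra* was at 2.56 and 2.71 CPM and *Pdgfrb* at 4.44 and 4.70 CPM in empty vector cells. The smooth muscle and pericyte markers had medians of 10.3 and 7.03 CPM, and of 9.18 and 6.23 CPM. Of these, 0 of 3 tested were called without the block and 3 lower with it. The endothelial markers had medians of 2.79 and 2.09 CPM, and of 2.41 and 2.27 CPM. For leukocyte markers the medians were 10.9 and 19.98 CPM, and 8.26 and 18.4 CPM, where 1 of 5, *Cd68*, was tested and called higher. Nearly all of that sum was *Cd68*, with 2937 counts in all libraries together. *Csf1r* had 34, *Lyz2* 27, *Ptprc* 6 and *Adgre1* 1, too few to test. For chondrocyte markers the medians were 1.83 and 2.58 CPM, and 1.45 and 2.58 CPM, where 1 of 4, *Sox9*, was tested and called higher with the block only. No marker was at 0 in all libraries, and the part of these markers in the collagen results was not tested. In such bulk RNA, fewer cells of a type and less RNA per cell cannot be told apart.

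The second question was whether the guides against *Gm15551* changed collagen levels. No collagen gene was called. Averaged over treatments, edgeR called 0 of 21 members without and with the block, where 0 and 0.266% of all genes were called, and DESeq2 also called 0. At an unadjusted p under 0.05 there were 0 members without the block (3.32% of all genes) and 2 of 21 with it (11.5% of all genes), *Col1a1* with a blocked log2 fold change of −0.20 (adjusted p = 0.411, SE 0.09) and *Col4a5* with −0.18 (adjusted p = 0.434, SE 0.09). The estimates without the block ran from −0.24 (*Col1a1*) to 0.35 (*Col3a1*), with a median of 0.03 against −0.01 for all genes, and 12 of 21 were above 0.

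The 95% confidence interval of the blocked log2 fold change of sgRNA over empty vector was −0.09 to 0.34 for *Col4a1*, −0.22 to 0.21 for *Col6a1*, −0.19 to 0.25 for *Col6a2* and −0.21 to 0.20 for *Col6a3*. For *Col27a1* it was −0.04 to 0.19, the narrowest of the 21, and for *Col5a3*, the member with the lowest level per kb, it was the widest, −0.73 to 0.49. The groups overlapped for all 21 members in both treatments, but the share of all genes with such overlap was not counted. In control cells alone and in stimulated cells alone, 0 members were called by edgeR in either fit or by DESeq2, where the blocked fit called 0.0304% and 0.122% of all genes, and at an unadjusted p under 0.05 there was 1, in stimulated cells with the block. Of all genes, 1.48% in control and 1.49% in stimulated cells had such a p without the block, and 5.73% and 7.29% with it.

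The third question was how the members differed between replicate numbers, which are crossed with the groups. More members passed here than in any other comparison. A joint test of the 3 differences between numbers, in the model with group means, gave an adjusted p under 0.05 for 15 of 21 members (71.4%), against 54.7% of all genes tested. The largest difference between the means of replicate numbers had a median of 0.81 on the log2 scale over the members and of 0.45 over all genes, and was over 2 for 3 members (14.3%) and for 3.11% of all genes.

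The type I chains and *Col12a1* varied most. *Col1a2* had means of 4.60 ± 1.97, 4.57 ± 2.19, 11.3 ± 3.22 and 36.8 ± 8.27 CPM in replicates 3, 4, 5 and 6 (SD, n = 4 groups). *Col1a1* had 4.10 ± 0.555, 4.05 ± 0.521, 10.8 ± 1.97 and 31.5 ± 3.75 CPM. All 4 libraries of replicate 6 were above all 12 others for both genes, and their means in replicate 6 were 8.05 and 7.77 times the lowest. *Col12a1* followed with means of 10.4, 7.83, 15.8 and 38.9 CPM. The log2 spread between numbers was 3.06 for *Col1a2*, 2.96 for *Col1a1* and 2.32 for *Col12a1*, and 99.0%, 98.8% and 97.8% of all genes tested had a smaller one.

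*Col5a2* and *Col3a1* were also highest in all libraries of replicate 6, with means of 32.5, 36.6, 49.8 and 80.1 CPM and of 11.2, 10.2, 12.7 and 26.7 CPM. *Col3a1*, the chain of type III collagen, was likewise singled out after its values were seen, and its call was lost without replicate 6 (adjusted p = 0.551). *Col4a5* and *Col5a1* had their highest means in replicate 6 as well, at 18.0 and 29.2 CPM against 7.91 and 14.4 CPM in replicate 3, but their libraries overlapped between numbers. The low-level members *Col16a1* and *Col4a6* were also called (adjusted p = 0.00229 and 0.00418 in the joint test). Their means were 1.63 and 1.88 CPM in replicate 6 against 0.481 and 0.624 CPM in replicate 3, and their libraries overlapped too. The log2 spreads of these 2 genes were 1.73 and 1.55. The fibril-forming class as a whole held 10.3% ± 0.325 (SD, n = 4) of the summed collagen CPM per kb in replicate 6, with values from 10.0% to 10.6%, and at most 6.24% in any other library. FACIT collagens held 1.75% ± 0.280 there, against 1.047%, 1.02% and 0.835% in replicates 3, 4 and 5.

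A different set stood out in replicate 5. *Col4a1* had means of 443 ± 124, 475 ± 78.1, 759 ± 82.6 and 449 ± 69.0 CPM in replicates 3, 4, 5 and 6 (SD, n = 4 groups). For *Col4a2* the means were 179, 189.9, 318 and 179 CPM, and for *Col15a1* 19.8, 20.4, 31.8 and 19.0 CPM. All 4 libraries of replicate 5 were above all others for each of the 3 genes, and each lost its call without replicate 5, with adjusted p-values of 0.660, 0.700 and 0.510. The basement membrane class held 49.4% ± 1.14 (SD, n = 4) of the summed CPM per kb in replicate 5 and 37.2% ± 3.40 in replicate 6. In replicates 3 and 4 it held 42.15% ± 1.683 and 43.63% ± 1.532.

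*Col6a2* and *Col20a1* varied least between numbers. *Col6a2* had means of 154, 149.8, 154 and 146 CPM, a log2 spread of 0.08 and an adjusted p of 0.957, and only 1.52% of all genes tested had a smaller spread. The corresponding spread of *Col20a1* was 0.14, with an adjusted p of 0.727. *Col6a1* and *Col6a3* were called (adjusted p = 0.0467 and 0.0199) with highest means in replicate 5, calls that were lost on leaving out 3 and 2 of the 4 numbers in turn, and *Col27a1* (adjusted p = 1.82e-04) had means of 29.6, 32.9, 37.9 and 25.5 CPM. *Col11a2*, *Col7a1*, *Col5a3* and *Col18a1* were not called.

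**Figure D5:**
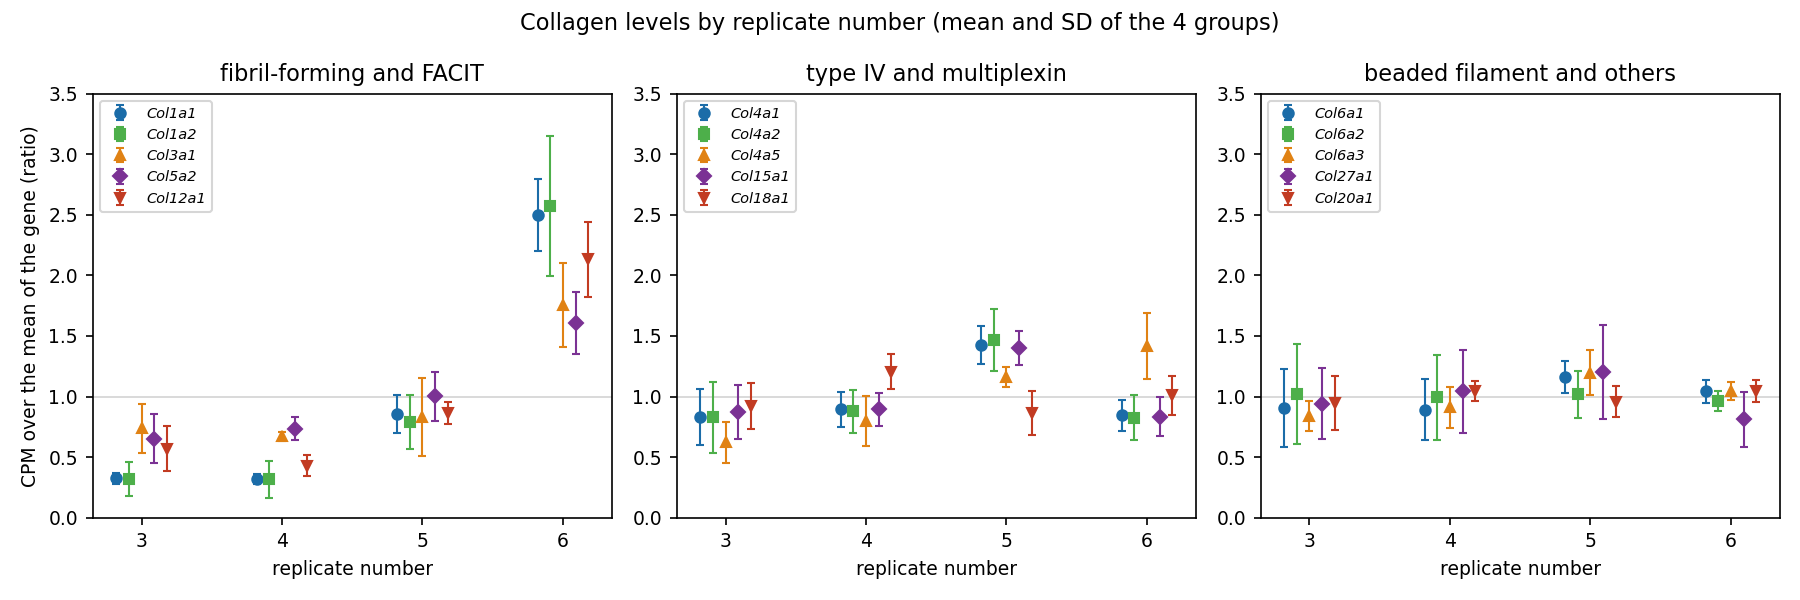
Mean CPM of 15 collagen genes in each replicate number, divided by the mean of the gene over all libraries, with bars for the SD over the 4 groups of that number. *Col1a1*, *Col1a2*, *Col12a1*, *Col3a1* and *Col5a2* stand highest in replicate 6 and *Col4a1*, *Col4a2* and *Col15a1* in replicate 5, while *Col6a2* and *Col20a1* stay near 1.

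The adipocyte markers summed to a median of 14890 CPM in replicate 6, against 24130, 24630 and 21540 CPM in replicates 3, 4 and 5, with ranges of 12480 to 20050 CPM in replicate 6 and 16400 to 27150 CPM elsewhere. The preadipocyte and fibroblast markers had a median of 71.1 CPM in replicate 6, against 24.6, 35.2 and 15.3 CPM, and the smooth muscle and pericyte markers one of 26.5 CPM, against 7.74, 3.58 and 7.86 CPM. Most of the latter sum was *Acta2*, with means of 4.70, 1.71, 5.62 and 21.6 CPM in replicates 3, 4, 5 and 6. *Tagln* was also highest in replicate 6, whereas *Myh11* was lowest there, at 1.94, 1.46, 2.16 and 1.41 CPM. *Cnn1* and *Rgs5* had too few counts for a test. *Ly6a* again made up most of the preadipocyte and fibroblast sum, with means of 23.2, 33.7, 7.29 and 56.5 CPM in replicates 3, 4, 5 and 6, against 1.74, 2.00, 3.83 and 8.71 CPM for *Pdgfrb* and 2.58, 2.93, 1.97 and 3.34 CPM for *Pdgfra*. Endothelial markers had medians of 3.08, 1.96, 2.59 and 2.47 CPM, leukocyte markers 13.6, 18.2, 10.9 and 15.65 CPM and chondrocyte markers 1.83, 2.50, 1.86 and 2.43 CPM in replicates 3, 4, 5 and 6. The leukocyte sum was again nearly all *Cd68*. The part of these markers in the differences between replicate numbers was not tested.

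Transcripts of chains that share a helix varied together over the libraries, but so did pairs that share none. After the group means were taken out, Pearson's r over the 16 libraries was 0.996 for *Col4a1* with *Col4a2*, 0.985 for *Col1a1* with *Col1a2* and 0.911 for *Col6a1* with *Col6a3*. It was 0.85 for *Col5a1* with *Col5a2*, 0.784 for *Col6a1* with *Col6a2*, 0.767 for *Col4a5* with *Col4a6* and 0.631 for *Col6a2* with *Col6a3*. Across classes it was 0.967 for *Col1a1* with *Col12a1*, 0.953 for *Col15a1* with *Col4a1* and 0.913 for *Col6a1* with *Col7a1*. The lowest of the 210 pairs was *Col11a2* with *Col12a1* at −0.596. The median over all pairs was 0.354. These values are a description of libraries that share replicate numbers and depth. For *Col4a1* and *Col4a2*, whose shared start region is printed above, strand use in the counting was not stated, and the annotated genes share 22 bp at their starts.

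The genes that process, bind or sense collagen were examined as 4 lists, for which calls are read beside the 2.65% of all genes called for isoproterenol without the block and the 5.7% with it. Of the 27 tested among 33 genes of collagen synthesis and processing, which include the hydroxylases, the chaperone *Serpinh1* and the lysyl oxidases, 0 were called for isoproterenol in either edgeR fit (1 and 5 at an unadjusted p under 0.05 without and with the block, against 17.7% and 33.5% of all genes), with a median log2 fold change of 0.10. Of the 6 tested among 10 collagen receptors 1 was called, the integrin chain *Itga1*, lower at −0.63 (adjusted p = 0.0138, SE 0.14). At an unadjusted p under 0.05 there were 1 of 6 receptors, 3 of 12 basement membrane partners and 3 of 9 fibril-associated genes without the block, and 5, 7 and 8 with it, beside the same shares of all genes. The means of *Itga1* were 4.45 ± 0.755 and 3.40 ± 0.725 CPM in empty vector and 4.96 ± 0.599 and 2.72 ± 0.366 CPM in sgRNA cells without and with isoproterenol (SD, n = 4).

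Among basement membrane partners, 1 of 12 tested of 16 was called higher. *Lama5*, a laminin chain, went from 18.0 ± 11.2 to 39.2 ± 20.2 CPM in empty vector and from 15.6 ± 5.27 to 34.9 ± 17.1 CPM in sgRNA cells (SD, n = 4), with a log2 fold change of 1.15 (adjusted p = 0.0345, SE 0.29). Of the 9 tested among 15 fibril-associated matrix genes 1 rose and 1 fell. The fibril-binding proteoglycan *Prelp* fell from 41.2 ± 5.09 to 19.8 ± 3.67 CPM in empty vector and from 44.9 ± 7.41 to 20.4 ± 6.91 CPM in sgRNA cells, with a log2 fold change of −1.10 (adjusted p = 2.16e-04, SE 0.14). The glycoprotein *Tnxb* rose from 3.29 ± 0.711 to 6.66 ± 1.77 CPM and from 3.42 ± 0.803 to 6.16 ± 0.971 CPM, at 0.93 (adjusted p = 0.00295, SE 0.16), and fibronectin, *Fn1*, was called higher with the block at 0.61 (adjusted p = 0.0021, SE 0.12), with means of 19.7 ± 18.4 and 30.7 ± 25.0 CPM in empty vector and of 17.5 ± 10.9 and 29.0 ± 25.8 CPM in sgRNA cells. Direction was the same in 8 of 8 pairs for *Itga1*, *Lama5*, *Prelp* and *Tnxb*, and in 7 of 8 for *Fn1*. Averaged over treatments, 0 genes of the 4 lists were called for the sgRNA in either edgeR fit. At an unadjusted p under 0.05 there were 3 of 27 synthesis and processing genes, 1 of 9 fibril-associated genes, 0 of 12 basement membrane partners and 0 of 6 receptors without the block, and 7, 4, 2 and 1 with it, against 3.32% and 11.5% of all genes. *Pcolce*, an enhancer of procollagen cleavage named after its values were seen, had a blocked adjusted p of 0.0348 at a log2 fold change of −0.36, under the fold bound.

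Between replicate numbers, 18 of 27 synthesis and processing genes, 8 of 9 fibril-associated genes, 11 of 12 basement membrane partners and 4 of 6 receptors had an adjusted p under 0.05, beside the 54.7% of all genes. Replicate 6 was again the highest for *Lox*, the enzyme that cross-links collagen, with means of 12.6, 9.79, 17.8 and 78.1 CPM in replicates 3, 4, 5 and 6. *Postn*, a matrix protein of collagen fibrils, had 1.88, 0.876, 14.6 and 57.7 CPM, *Bgn*, a small proteoglycan, 28.6, 17.5, 56.0 and 117 CPM and *Fn1* 12.6, 11.6, 19.1 and 53.6 CPM. These 4 genes were singled out after their values were seen.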

How the data were processed

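PolyA RNA of the 16 libraries, 4 groups of 4, had been sequenced as paired ends (NEBNext Ultra II). Per the study's methods and the labels, the authors demultiplexed with bcl2fastq, filtered reads with cutadapt and quantified with Salmon on GENCODE M22 (GRCm38). Versions and use of strand are not given in the sources used here. The deposited values are counts per gene and library, whole numbers that came from estimated counts of Salmon, and are not normalised.

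Genes were filtered with filterByExpr (minimum count 10, minimum total 15), which left 13150 of 54347. Counts were scaled by TMM and tested with edgeR 4.0.16 (glmQLFit and glmQLFTest, R 4.3.3) in 1 model of 4 group means over all libraries, with Benjamini-Hochberg adjustment over all genes tested, at 0.05 together with a bound of 0.5 on the absolute log2 fold change. The replicate number was tested jointly in the model with the replicate block, on adjusted p alone. CPM per kb used the joined exon length of all GENCODE M21 transcripts of a gene. Correlations used log2(CPM + 0.5). No 2 libraries were alike, with at least 21610 genes different in each of 120 pairs. Scripts were tested on simulated data.

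Replicate numbers paired the libraries. After group means were removed, libraries of the same number correlated at 0.267 to 0.677 in every pair, against a median of −0.249 for different numbers in different groups. What a number marks is not given in the labels, and the design text speaks of triplicates while titles give numbers 3 to 6.

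Values in every library are given for members called in any contrast, without or with the block, and for the 3 highest per kb in each class, 16 in all. Of each list of related genes, up to 6 called genes are named. A result for 1 gene of these lists is not reported here. Members and lists were chosen with earlier results of these data known. Alternatives were other size factors, TMM without the ribosomal RNA gene, no filter, DESeq2 1.42.0, no fold bound, the block, the block with ribosomal RNA share as covariate, and leaving out replicate numbers or libraries.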

Additional observations from a re-analysis of the deposited data

Results flagged for a closer look

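For 18 members, 6 chain ratios and the collagen share of counts, the 4 libraries of each group were examined for 1 that stood far from the other 3, which made 100 groups. In 9 of them the gap of the highest library passed Dixon's 95% critical value, and chance marks about 1 in 20 such groups. All 9 were libraries of replicate 5 or 6.

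In replicate 5, *Col15a1* was at 32.3 CPM in stimulated empty vector cells (others 13.6 to 16.7), 34.4 CPM in sgRNA control cells (22.8 to 24.8) and 33.4 CPM in stimulated sgRNA cells (15.8 to 18.8). *Col4a1* was at 851.2 CPM in sgRNA control cells (504 to 552) and 713 CPM in stimulated sgRNA cells (404 to 438), and *Col4a2* at 262 CPM in the latter (150.4 to 163). In replicate 6, *Col1a2* was at 31.9 CPM in stimulated sgRNA cells (3.22 to 7.28), *Col3a1* at 27.5 CPM in stimulated empty vector cells (7.33 to 10.2) and *Col5a2* at 73.7 CPM in empty vector control cells (38.1 to 41.7). For no member did isoproterenol go one way in every pair of empty vector cells and the other way in every pair of sgRNA cells.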

How the results depend on the processing

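*Col27a1* was called for isoproterenol averaged over plasmids under every alternative (log2 fold change 0.71 to 0.84), and *Col6a2* (−0.80 to −0.52) under all but 1, without replicate 4. The count of members called averaged over plasmids was 4 with the replicate block and 4 with the block and ribosomal RNA share as covariate. In empty vector cells it was 1 with the other size factors and 1 with TMM without the ribosomal RNA gene, and in sgRNA cells 2 with DESeq2, 5 with the replicate block and 5 with its covariate. Among the collagen members, the replicate block changed no other call but those given with the results.

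With replicate numbers or libraries left out, without and with the block, the counts ranged from 1 to 7 averaged over plasmids, 0 to 6 in empty vector cells, 0 to 6 in sgRNA cells and 10 (without replicate 5) to 16 for the replicate number. Every sgRNA contrast and the interaction stayed at 0. Averaged over plasmids and without the block, 1 was left without replicate 4 and 4 were called without replicate 5 or without its stimulated empty vector library, which added *Col4a2* and *Col6a1*. With the block, 7 were called without replicate 5. The blocked fit without the stimulated empty vector library of replicate 3 was chosen after seeing the data and called 6 in sgRNA cells.

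Log2 fold changes near 0 reversed for *Col18a1* (0.018) and *Col20a1* (0.009) with the block and covariate and for *Col20a1* with DESeq2 (0.001). With a replicate number or library left out, *Col12a1* ranged from −0.021 to 0.781, *Col16a1* from −0.253 to 0.093, *Col18a1* from −0.143 to 0.131 and *Col20a1* from −0.101 to 0.049. *Col6a3* ranged from −0.21 to 0.036, and *Col1a2* in empty vector cells from −1.903 (without the stimulated library of replicate 6) to 0.241 (without the control library of replicate 6). In the blocked fit, *Col16a1* was at 0.01 without replicate 6, *Col18a1* at 0.141 without replicate 3, 0.076 without replicate 4 and 0.048 without the stimulated empty vector library of replicate 3, and *Col20a1* at 0.048, 0.049 and 0.057 without replicate 3, replicate 5 and that library. *Col6a3* was at 0.008 without replicate 4. The cause was not tested. Depth limited the 23 members not tested.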
